A study of Mus musculus with 22 samples.

Results

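Adipokines are proteins that fat cells release into the blood, and the 7 genes described here encode the best known of them. Adipoq encodes adiponectin, which raises insulin sensitivity. Lep encodes leptin, the satiety hormone, and Retn encodes resistin. Cfd encodes complement factor D, also called adipsin, the protease that cleaves factor B to start the alternative complement pathway. Rbp4 encodes the carrier of retinol in blood, Rarres2 encodes chemerin, a ligand of the receptor Cmklr1, and Nampt encodes an enzyme of NAD salvage that is also secreted. The genes are a fixed list of names with no measured value in its rule, though the list was drawn up with earlier results of these data known, and they are 7 of the 21938 protein-coding genes of the annotation used. The locus of a gene was its span plus 20 kb on each side, and every called peak that overlapped a locus was used.

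The question behind the design was whether chromatin opened or closed in fat cells by obesity returns to the control state once weight is lost. ATAC-seq, in which a transposase cuts open chromatin, was run on adipocyte nuclei from frozen epididymal fat, and each of the 22 libraries came from 1 mouse. All mice were AdipoERCre x NuTRAP animals on a background written C576BL6 in the labels, controls included. In them Adipoq regulatory sequence drives a tamoxifen-inducible Cre, Cre switches on a reporter that tags nuclei with biotin, and tamoxifen preceded the diets in every group. Mice of group C (n = 3) ate chow and were 18 weeks old, and those of H (n = 3), of equal age, had eaten high-fat diet for 12 weeks. HC (n = 3) had 12 weeks of high-fat diet and then 8 weeks of chow, and CC_s (n = 3) is its chow control, both 26 weeks old. HH (n = 3) had 25 weeks of high-fat diet and CC_l (n = 2) had chow, both 31 weeks old. HHC (n = 3) had 25 weeks of high-fat diet and then 8 weeks of chow, and CCC (n = 2) is its control, both 39 weeks old. Another chow was given in the last 8 weeks to the weight loss groups and to CC_s and CCC alike, so age and chow cannot be told apart between control groups. The short and the long durations belong to 2 series of libraries, so duration and series cannot be told apart either.

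Adipocytes make these proteins at very different rates, and the genes for adiponectin, leptin, resistin and adipsin are known as markers of the mature fat cell that PPARγ and C/EBPα switch on during differentiation. Leptin secretion is known to rise with fat mass, while adiponectin and adipsin fall in many models of obesity. Those facts concern RNA and protein. The values below describe open chromatin in called peaks and not transcription.

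The deposited values have the unit signal. The total signal of a peak is the coverage summed over its bases, and its maximum signal is the tallest coverage value within. Because the lists differ in scale, each library was rank-mapped, which means that its loci were ranked by total signal and given the log2 value that this rank takes on average over the 22 libraries. The lowest value this scale can take, called the floor, was 14.06 for loci. All log2 values below are on this scale. A locus was called when limma's moderated test gave a Benjamini-Hochberg adjusted p under 0.05 over all loci tested.

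Promoter windows of 6 of the 7 genes were found in the RefSeq promoter table (build GRCm38.p6, 250 bases before to 50 bases after the start). The 4 shown here belong to the genes that the results turn on or that carry the strongest signal. They run 5′ to 3′ in the direction of transcription, and capitals mark matches to any of 7 motifs searched on both strands (TATAAA as the TATA box, CCAAT as the CCAAT box, GGGCGG as the GC box, CACGTG as the E box, AGGTCA as the nuclear receptor half-site, TTNNGCAA as a C/EBP pattern and TGANTCA as the AP-1 site). The windows lie at chr10:79890603-79890902 (Cfd, plus strand), chr12:32820085-32820384 (Nampt, plus strand), chr16:23146286-23146585 (Adipoq, plus strand) and chr6:29059971-29060270 (Lep, plus strand).
Cfd: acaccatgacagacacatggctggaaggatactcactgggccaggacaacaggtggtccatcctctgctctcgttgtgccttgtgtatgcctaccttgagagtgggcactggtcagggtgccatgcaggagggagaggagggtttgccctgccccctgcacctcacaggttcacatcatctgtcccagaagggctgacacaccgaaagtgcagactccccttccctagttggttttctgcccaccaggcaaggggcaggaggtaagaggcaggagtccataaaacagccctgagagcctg
Nampt: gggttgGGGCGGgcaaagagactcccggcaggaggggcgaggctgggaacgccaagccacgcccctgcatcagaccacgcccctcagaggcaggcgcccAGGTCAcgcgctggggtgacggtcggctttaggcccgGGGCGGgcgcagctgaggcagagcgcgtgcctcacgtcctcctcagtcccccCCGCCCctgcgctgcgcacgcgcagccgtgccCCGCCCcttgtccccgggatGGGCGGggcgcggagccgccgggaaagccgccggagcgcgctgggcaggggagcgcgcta
Adipoq: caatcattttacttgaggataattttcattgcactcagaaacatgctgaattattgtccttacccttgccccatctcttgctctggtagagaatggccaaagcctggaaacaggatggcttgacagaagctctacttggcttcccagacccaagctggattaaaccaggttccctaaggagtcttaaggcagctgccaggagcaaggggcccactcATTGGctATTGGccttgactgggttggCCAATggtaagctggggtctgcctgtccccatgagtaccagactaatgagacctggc
Lep: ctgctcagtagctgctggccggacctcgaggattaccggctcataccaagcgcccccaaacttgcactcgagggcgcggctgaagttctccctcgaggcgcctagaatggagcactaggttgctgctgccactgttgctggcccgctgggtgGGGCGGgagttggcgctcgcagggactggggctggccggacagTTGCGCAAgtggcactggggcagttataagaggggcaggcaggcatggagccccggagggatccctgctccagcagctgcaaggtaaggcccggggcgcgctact
The Cfd window held no match to any of the 7 motifs. The Nampt window had a GC content of 76.3% and held 5 GGGCGG matches, a motif that 35.7% of all 32851 windows in the table hold at least once, and 1 AGGTCA match, which 16.3% hold. The Adipoq window held 3 CCAAT matches within 34 bases before the start, a motif that 37.4% of windows hold. The Lep window held a GGGCGG match 98 bases and a TTNNGCAA match 55 bases before the start, and 10.8% of windows hold the latter. The Retn window held none of the motifs. Rbp4 has 2 windows, and the one at chr19:38124762-38125061 on the minus strand held TATAAA 28 bases before the start, which 13.6% of windows hold. CACGTG, in 7.15% of windows, was in none of the members' windows, and TGANTCA, in 7.81%, was in 1 member's window. A match is a string of letters and says nothing of a bound factor. Peaks lay over the windows of Adipoq, Lep, Retn and Nampt in all 22 libraries, over that of Cfd in 20 and over those of Rbp4 in 19.

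In 4 libraries, HC 3, HH 1, CCC 2 and HHC 3, the peaks at the Adipoq locus stood apart from those of the other 18. In the 18 libraries a stretch of 179 kb at chr16:23088923-23268205 was filled with peaks almost from end to end. It holds Eif4a2, Rfc4, Adipoq and part of St6gal1 and was delimited, after the peaks had been seen, as the bases inside a peak in at least 11 libraries, joined over gaps of up to 5 kb. Peaks covered 92.9% to 100% of it in the 18 libraries (median 99.2%) and 15.7% to 25.2% in the other 4. The first peak began at -1702 to 349 bp from the left edge in each of the 18, and the last ended at -2118 to 4304 bp from the right edge. Flanks of the same length were covered to 0% to 3.57% on the left and 2.20% to 10.5% on the right. In the 4 libraries the Adipoq start site lay in a peak of 8.02 to 18.8 kb, which held the whole gene in CCC 2 and ended inside the gene in HC 3, HH 1 and HHC 3. Reads from the gene and from copies of Adipoq regulatory sequence in the transgene cannot be told apart in peak lists, and their part in the stretch was not tested. The 4 libraries also had the lowest ratios of the median peak maximum to the lowest peak maximum of the list, 2.25 to 3.75 against 4.25 to 8.92 in the 18. Most differences of the 7 genes that include one of them are given with all libraries and again without the 4.

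**Figure D1:**
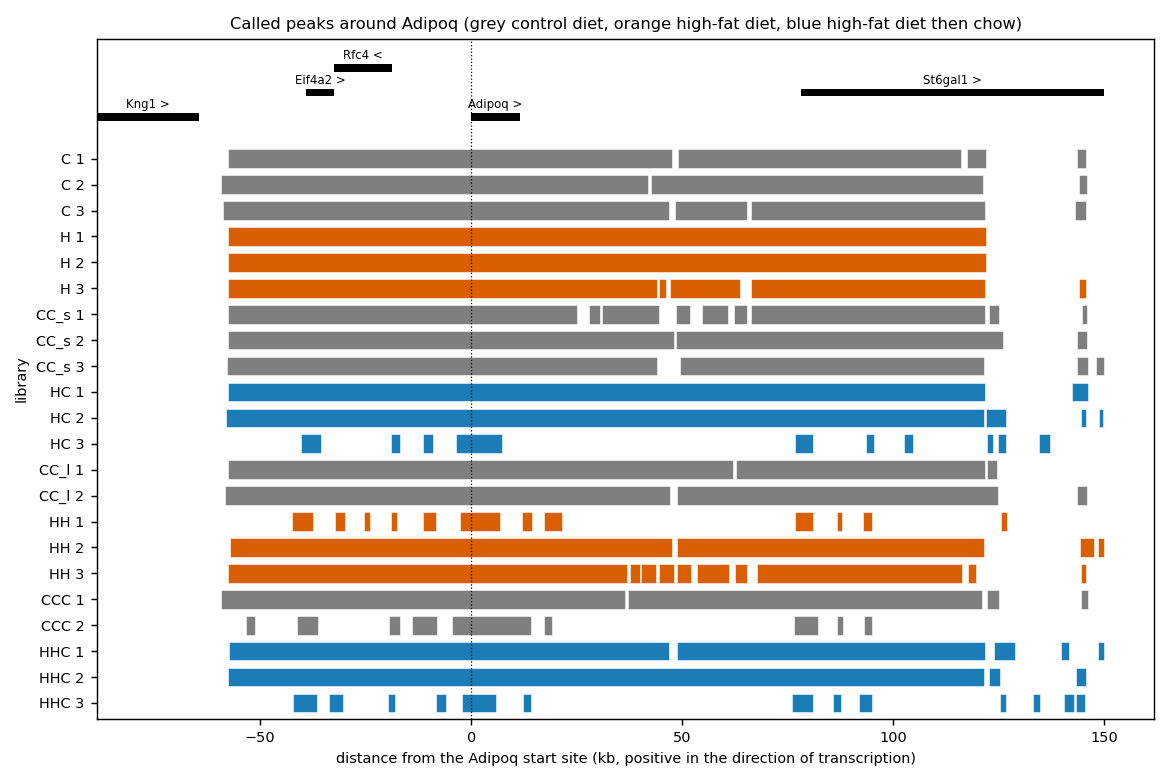
Called peaks around the Adipoq start site in each of the 22 libraries. The x axis is the distance from the start site in kb, each row is a library, each bar is a peak, and black bars are genes with arrows for their strand. In 18 libraries peaks fill the stretch from Eif4a2 into St6gal1 with shared edges (92.9% to 100% covered), while HC 3, HH 1, CCC 2 and HHC 3 show separate short peaks (15.7% to 25.2%).

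The labelled cell type was checked at promoters, taken as 2 kb on each side of the start sites. All 12 adipocyte markers had a promoter peak in every library. Of 12 macrophage markers 3 to 8 had one, of 12 lymphocyte and neutrophil markers 2 to 4, and of 12 endothelial and stromal markers 5 to 7 in the 18 libraries and 7 to 12 in the 4, with all 12 in HH 1. Of 6 mesothelial markers, 0 or 1 had a peak in the libraries of H and HH, against 2 to 4 in C and 2 in CC_l, and their part in the results below was not tested. Fewer cells with an open locus and less open chromatin per cell cannot be told apart in such bulk libraries. The lists held 40528 to 60523 peaks. They give no read counts, so sequencing depth is unknown.

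Signal per base was compared between the loci. As a median percentile among all loci, Adipoq stood at 99.9, Lep at 99.8, Retn at 99.6, Cfd at 99.5, Rarres2 at 95.1, Nampt at 81.6 and Rbp4 at 80.9. Rarres2 was above Nampt in 22 of 22 libraries, Cfd above Rarres2 in 21 and Lep above Retn in 20. The order of the other neighbours was less stable, with Adipoq above Lep in 16, Retn above Cfd in 14 and Nampt above Rbp4 in 14. The start site lay inside a peak in all 22 libraries for Adipoq, Lep, Retn, Rarres2 and Nampt, in 20 for Cfd and in 19 for Rbp4. Within the peak over the start site, which was not always the strongest of its locus, the strongest block lay within 500 bp of the start in 21 libraries for Nampt, 19 for Adipoq and Rbp4, 17 for Rarres2, 10 for Lep, 7 for Retn and 1 for Cfd. The Cfd locus also holds Plppr3, Prtn3, Elane, Med16, R3hdm4 and Gm26602, so its signal is not that of Cfd alone. Lep and Nampt had no other protein-coding gene in their loci.

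Among the 7 genes the Cfd locus lost signal in obesity. It was lower in H than in C, and over both durations together, and no difference was called after weight loss. The locus signal in C was 20.06, 20.54 and 19.74, and in H it was 19.02, 18.79 and 19.35. In CC_l it was 20.56 and 20.74, and in HH it was 19.15, 19.21 and 19.16. Neither pair of groups overlapped. The share of all features that separate in this way is not given, here or below. In H against C 31.2% of all loci had an unadjusted p under 0.05. At Cfd the log2 difference was -1.06 (SE 0.23, limma adjusted p = 0.035) for H against C. It was -1.47 (SE 0.12, limma adjusted p = 0.059) for HH against CC_l, and without HH 1 and the other 3 libraries it was -1.46 (limma adjusted p = 0.035). Averaged over both durations in one fit of all groups, the obesity difference was -1.26 (SE 0.30, limma adjusted p = 0.015) with 22 libraries and -1.26 (SE 0.21, limma adjusted p = 0.0020) with 18. Cfd was the single member called in H against C, where 11% of 17045 loci were called, and in obesity over both durations, where 8.26% of 18651 loci were called. No member was called in HH against CC_l, where 0.00579% of loci passed, but Cfd was called with the 18 libraries, where 1.09% passed. The call for H against C did not hold when C 1, C 2, H 1 or H 2 was left out, and that over both durations did not hold without CC_l 1 or CC_l 2.

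**Figure D2:**
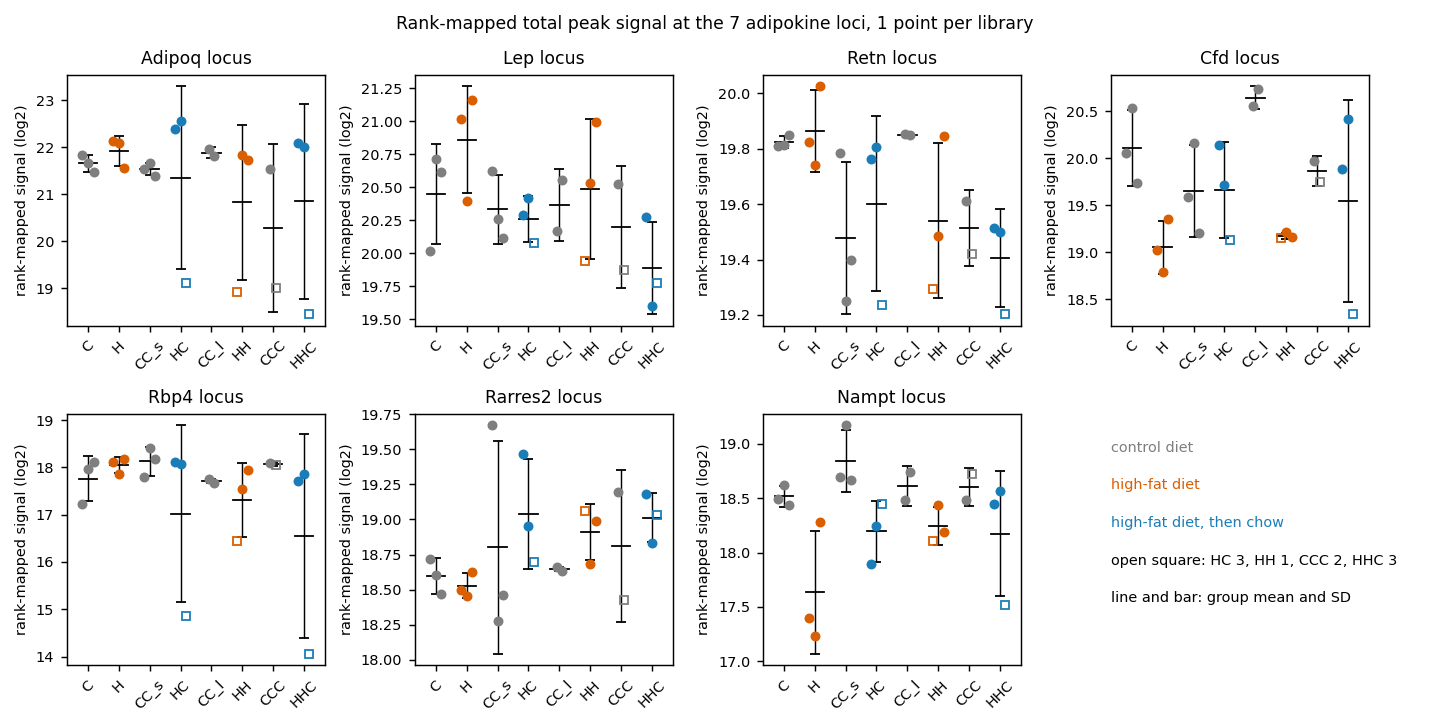
Rank-mapped total peak signal (y axis, log2) at the 7 adipokine loci by group (x axis). Each point is a library, lines and bars are group means and SDs, and open squares are HC 3, HH 1, CCC 2 and HHC 3. At Cfd the H and HH libraries sit between 18.79 and 19.35, below all C and CC_l libraries, and the open squares are lowest of their groups at Adipoq.

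The Cfd promoter was called lower in HH than in CC_l. Its signal was 20.61 and 20.45 in CC_l and 17.52, 17.66 and 17.42 in HH, a log2 difference of -2.999 (SE 0.23, limma adjusted p = 0.023). It was -2.99 (limma adjusted p = 0.039) without HH 1. The call did not hold when CC_l 1, CC_l 2, HH 2 or HH 3 was left out, nor by maximum signal, with no filter on low values or with the replicate number as a block. Cfd was the single member called there, where 0.0843% of 13048 promoters passed, and 0.195% without HH 1. In C the promoter signal was 19.85, 20.27 and 19.36, and in H it was 18.77, 16.92 and 18.78. This difference of -1.67 was not called (SE 0.55, limma adjusted p = 0.166), nor was any member's in H against C, where 2.29% of promoters passed. Over both durations the promoter difference was -2.34 (SE 0.92, limma adjusted p = 0.237), with 2.09% of promoters called, and -2.33 (SE 0.33, limma adjusted p = 0.0026) with the 18 libraries, with 4.66% called.

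The peaks show what changed in form. In C and CC_l the peak over the Cfd start site was 37573, 70511, 65487, 47015 and 65601 bp long. In H it was 29873, 9232 and 25549 bp, and in HH it was 8170, 11585 and 12694 bp. Short peaks also occurred in older chow controls, with 27487, 70524 and 38557 bp in CC_s and 65191 and 19435 bp in CCC. The long peaks of C and CC_l reached from Prtn3 or beyond to past Med16. Of the obese libraries only H 1 had a peak over that whole stretch, and in H 2 and the HH libraries the peak over the start site did not reach Elane. As a peak counts with its full total for every locus it touches, the size of the difference depends on where peaks join. When only the part of each peak inside the locus was counted, the log2 difference was -0.67 for H against C (limma adjusted p = 0.047) and -0.87 over both durations (limma adjusted p = 0.020). By maximum signal it was -0.37 in both (limma adjusted p = 0.054 and 0.089), and by covered length it was -0.21 and -0.28 (limma adjusted p = 0.497 and 0.408). Within the peak over the start site, the strongest block had a median position of -6193 bp from the Cfd start, between the neutrophil protease genes Prtn3 and Elane. Over the whole merged region, chr10:79847324-79976915, which holds 13 genes, the obesity difference was -0.69 (SE 0.12, limma adjusted p = 0.0016) over both durations and -0.72 (limma adjusted p = 0.0020) with the 18 libraries.

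**Figure D3:**
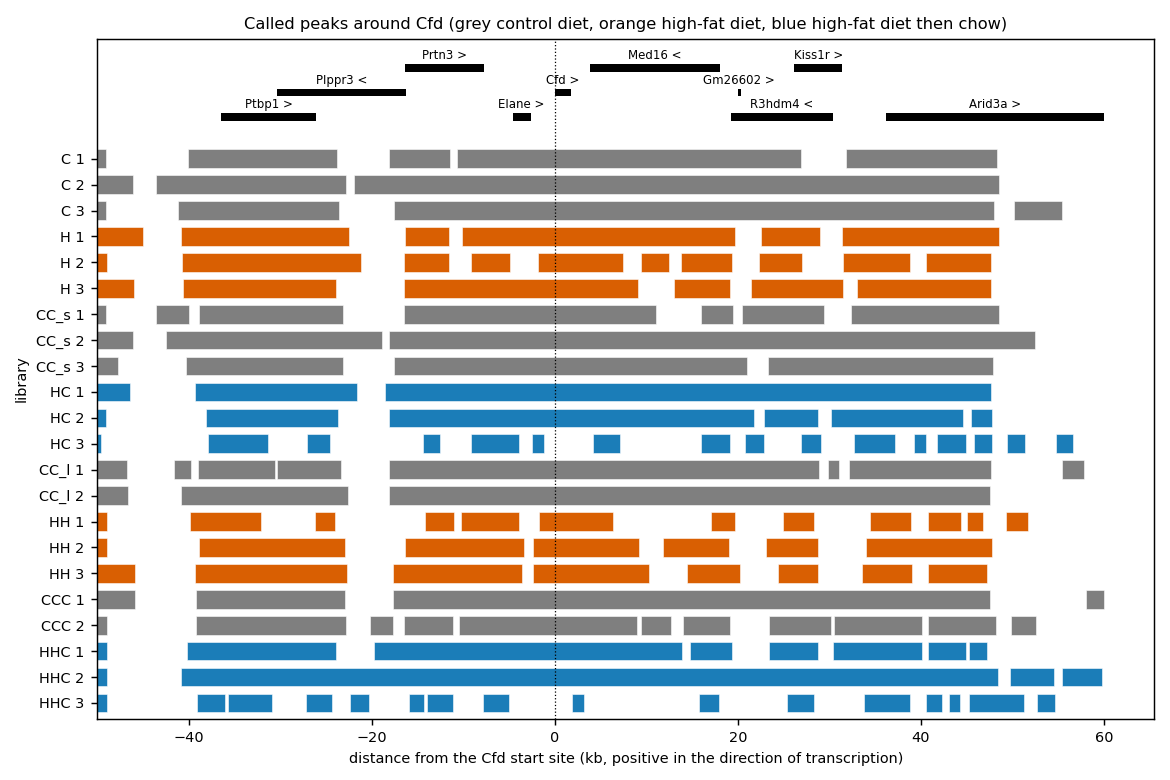
Called peaks around the Cfd start site in each of the 22 libraries. The x axis is the distance from the start site in kb, each row is a library, each bar is a peak, and black bars are genes. The peak over the start site is 37573 to 70511 bp long in C and CC_l and 8170 to 29873 bp long in H and HH, and in HC 3 and HHC 3 no peak covers the start site.

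After weight loss no difference was called at Cfd. The locus signal was 19.59, 20.17 and 19.20 in CC_s and 20.14, 19.72 and 19.13 in HC, a difference of 0.01 (SE 0.33, limma adjusted p = 0.993), and of 0.28 (limma adjusted p = 0.759) without HC 3. It was 19.98 and 19.75 in CCC and 19.88, 20.42 and 18.34 in HHC, a difference of -0.32 (SE 0.61, limma adjusted p = 0.902), and of 0.17 (limma adjusted p = 0.972) without CCC 2 and HHC 3. The lowest library of each weight loss group was HC 3 and HHC 3. Over both durations the difference was -0.15 with 22 libraries (limma adjusted p = 0.772) and 0.22 with 18 (limma adjusted p = 0.778). The control groups differed by -0.46 between CC_s and C and by -0.78 between CCC and CC_l, neither called (limma adjusted p = 0.806 and 0.510), and 0% of loci were called in either comparison (5.44% and 9.64% had an unadjusted p under 0.05, Cfd among the latter). The weight loss difference minus the obesity difference was 1.07 (SE 0.56) in the short and 1.15 (SE 0.63) in the long duration. Without the 4 libraries these were 1.33 (limma adjusted p = 0.212) and 1.63 (limma adjusted p = 0.521). With 22 libraries neither was called (limma adjusted p = 0.704 and 0.956), and 0% of loci were called in either test (7.57% and 5.08% had an unadjusted p under 0.05, with none of the members).

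A region downstream of Nampt, almost wholly outside its locus, had lower signal in obesity over both durations. At the gene itself the calls depended on the comparison and on the libraries used. The locus signal in C was 18.50, 18.62 and 18.44, and in H it was 17.39, 17.23 and 18.28. In CC_l it was 18.48 and 18.74, and in HH it was 18.11, 18.44 and 18.19. The obese libraries lay below the controls in both pairs, though H 3 and HH 2 came close to them. The log2 difference was -0.88 (SE 0.28, limma adjusted p = 0.084) for H against C and -0.36 (SE 0.20, limma adjusted p = 0.522) for HH against CC_l, or -0.29 (limma adjusted p = 0.443) without HH 1. Over both durations it was -0.62 with 22 libraries (SE 0.21, limma adjusted p = 0.079) and -0.59 with 18 (SE 0.19, limma adjusted p = 0.047). Nampt and Cfd were the 2 members called with the 18 libraries, where 19.3% of loci passed. At the promoter the difference over both durations was -0.82 (SE 0.26, limma adjusted p = 0.129), and -0.71 (limma adjusted p = 0.184) with the 18 libraries.

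Peaks of all libraries were merged into regions, and 13 of these overlapped a member locus, of which 11 were tested. The region over the Nampt gene, chr12:32814146-32860218, was lower in H than in C by a log2 difference of -0.82 (limma adjusted p = 0.047). It was not called in HH against CC_l (-0.36, limma adjusted p = 0.442, and -0.29, limma adjusted p = 0.378, without HH 1). Over both durations it was at -0.59 (limma adjusted p = 0.051) with 22 libraries and at -0.55 (limma adjusted p = 0.042) with 18. In H against C this region and one at Rarres2 were the 2 of 11 called, both lower, where 16.8% of 30840 regions passed. The region downstream of the gene, chr12:32872202-32902174, contains no protein-coding gene. It only touches the Nampt locus, which ends at chr12:32873349. Of all libraries only CC_s 2 had a peak of this region that reached into the locus. Its signal was 17.74, 18.23 and 18.22 in C and 17.29, 17.58 and 17.65 in H. It was 18.34 and 18.33 in CC_l and 17.05, 17.78 and 17.71 in HH. Obese and control libraries did not overlap within either pair, and the share of all regions that separate in this way is not given here. The difference over both durations was -0.69 (SE 0.14, limma adjusted p = 0.0048), and -0.57 with the 18 libraries (limma adjusted p = 0.0062). By maximum signal, or when a peak had to cover 50% of a region, no region at the 7 loci was called by limma in obesity over both durations, so the calls of this region and of the Cfd region ended there. This region and that of Cfd were the 2 called over both durations, where 9.07% of 49133 regions passed. With the 18 libraries 4 regions were called, all lower, namely both at Nampt and 1 each at Cfd and Rarres2, where 13.4% passed. None was called in HH against CC_l, where limma called 0% of regions and 13.7% had an unadjusted p under 0.05.

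**Figure D4:**
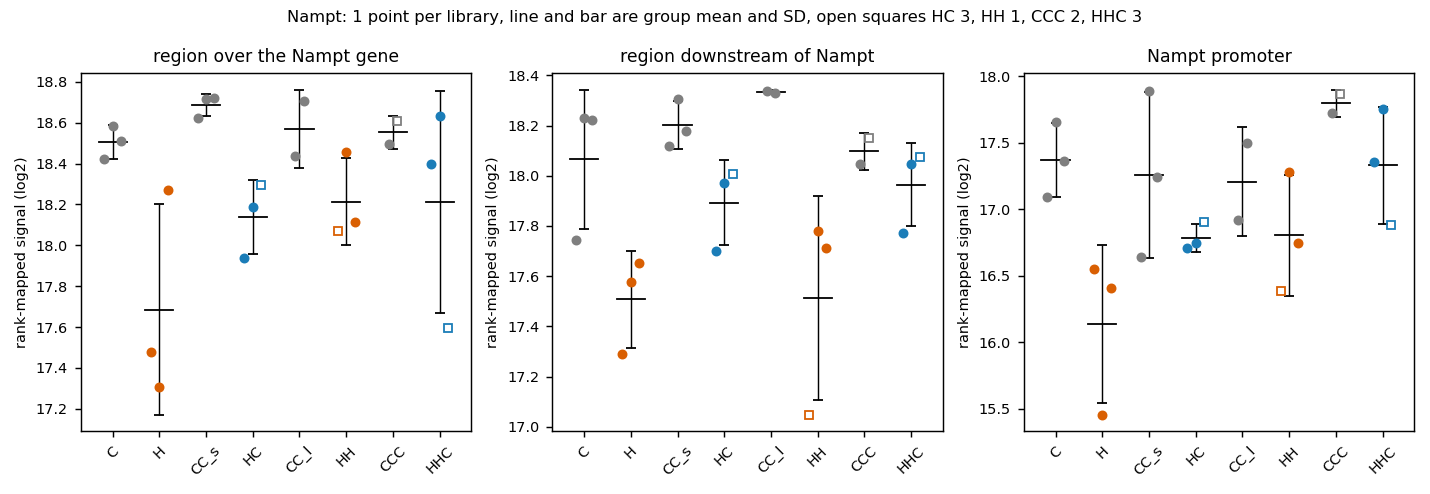
Rank-mapped signal (y axis, log2) of the region over the Nampt gene, of the region downstream of it and of the Nampt promoter, by group (x axis). Points are libraries, lines and bars are group means and SDs, and open squares are HC 3, HH 1, CCC 2 and HHC 3. In the downstream region the H and HH libraries lie between 17.05 and 17.78.

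After weight loss the Nampt locus was 18.69, 19.17 and 18.67 in CC_s and 17.89, 18.25 and 18.45 in HC, which did not overlap. The difference of -0.65 had an unadjusted p of 0.029 and was not called (SE 0.24, limma adjusted p = 0.514), nor was that of -0.78 (limma adjusted p = 0.339) without HC 3. It was -0.43 for HHC against CCC (SE 0.38, limma adjusted p = 0.856), where HHC 3 was lowest at 17.51, and 0.02 without HHC 3 and CCC 2. Over both durations the difference was -0.54 (limma adjusted p = 0.166), and -0.38 with 18 libraries (limma adjusted p = 0.524). No member was called in HC against CC_s or in HHC against CCC, and 0% of all loci were called in either, while 8.99% and 4.04% had an unadjusted p under 0.05, with Nampt as the single member in the former and none in the latter. In weight loss over both durations none of the 7 was called among the 2.19% of loci that passed. No change of the Nampt difference between durations was called (long minus short 0.52, SE 0.42, limma adjusted p = 1.00), in which 0% of loci passed and 2.59% had an unadjusted p under 0.05. The same test for weight loss called 0.00536% of loci and none of the members.

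Adipoq had the highest median signal of the 7 genes, though in HC 3, HH 1, CCC 2 and HHC 3 it lay below Lep. The Adipoq locus signal was 21.83, 21.65 and 21.48 in C and 22.12, 22.08 and 21.56 in H, and the groups overlapped. The difference was 0.27 (SE 0.16, limma adjusted p = 0.310). For HH against CC_l it was -1.05 (SE 0.86, limma adjusted p = 0.675) with HH 1 at 18.93, and -0.11 (SE 0.08, limma adjusted p = 0.528) without that library. By maximum signal Adipoq went the other way in H, with raw values of 495, 354 and 540 against 865, 1487 and 1706 in C, and on the rank-mapped scale of maxima the difference was -1.06 (limma adjusted p = 0.047). The longest peak was 180 kb in H 1 and H 2, 102 kb in H 3 and 101 to 106 kb in C.

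In weight loss, Adipoq signal was 22.39, 22.56 and 19.11 in HC against 21.54, 21.65 and 21.39 in CC_s. It was 22.08, 22.01 and 18.45 in HHC against 21.54 and 19.01 in CCC. The low values of HC, HHC and CCC were those of 3 of the 4 libraries. With 22 libraries the difference over both durations was 0.20 (SE 0.75, limma adjusted p = 0.897). With the 18 it was 0.72. The 4 libraries were set apart by their peaks at this same locus, so the fit without them is no independent test of Adipoq. The CCC group was then 1 library, which the fit assumed to vary like the others. The longest peak was 179 to 180 kb in HC 1, HC 2 and HHC 2, 104 kb in HHC 1 and 82.8 to 106 kb in CC_s. Over the whole merged region, chr16:23087221-23275372, which does not depend on where peaks join, the difference was 0.0050 (SE 0.65, limma adjusted p = 1.00) with 22 libraries and 0.11 (SE 0.19, limma adjusted p = 0.999) with 18.

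Lep, Retn and Rbp4 showed no called difference. Lep, the hormone gene whose RNA follows fat mass, had a locus signal of 20.02, 20.72 and 20.61 in C and 21.02, 20.40 and 21.16 in H, overlapping ranges with a difference of 0.41 (SE 0.25, limma adjusted p = 0.302). Its promoter difference was 0.76 (SE 0.26, limma adjusted p = 0.171), with 19.06, 19.80 and 19.87 in C and 20.47, 20.13 and 20.41 in H, which did not overlap. Over both durations the Lep locus difference was 0.27 in obesity (limma adjusted p = 0.508), and 0.41 with the 18 libraries (limma adjusted p = 0.187). Retn, in a locus shared with Stxbp2, Mcemp1, Fcor and Trappc5, had the narrowest range, 19.20 to 20.03 over all libraries, and its obesity difference was -0.14 (SE 0.13, limma adjusted p = 0.612), and -0.07 (limma adjusted p = 0.668) with the 18 libraries. Rbp4, whose locus holds Ffar4 and Pde6c as well, had no peak in HHC 3 and 1 in HC 3. Its weight loss difference of -1.32 (SE 0.64, limma adjusted p = 0.243) was -0.17 (SE 0.21, limma adjusted p = 0.810) with the 18 libraries. In obesity it was -0.06 with 22 libraries and 0.16 with 18.

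At the Rarres2 locus, which also holds Lrrc61 and Gm45021, a region was called in weight loss. This region, chr6:48563347-48589722, covers the Rarres2 start site, holds 3 genes in all, and had a signal of 18.25, 18.06 and 18.11 in CC_s and 18.49, 18.52 and 18.30 in HC. It was 18.16 and 17.96 in CCC and 18.66, 18.23 and 18.60 in HHC. Weight loss libraries lay above their controls in both pairs. The difference over both durations was 0.37 (SE 0.09, limma adjusted p = 0.040), the single region of the 11 called, where 2.25% of regions passed, and 0% passed in HC against CC_s and in HHC against CCC (12.0% and 6.14% had an unadjusted p under 0.05). With the 18 libraries it was 0.32 (limma adjusted p = 0.101) and was not called. At the whole Rarres2 locus the weight loss difference was 0.22 (limma adjusted p = 0.539), and 0.11 (limma adjusted p = 0.933) with the 18 libraries. At its promoter it was 0.32 (limma adjusted p = 0.814) with 18 libraries and 0.75 (SE 0.23, limma adjusted p = 0.178) with 22, where 0.148% of promoters were called. In the single pairs, 0.0866% of promoters were called in HC against CC_s and 0% in HHC against CCC, none of them of a member. Another region of this locus, chr6:48551120-48561877, was lower in H, at 16.31, 16.18 and 16.30, than in C, at 16.98, 16.90 and 16.67 (log2 difference -0.59, SE 0.15, limma adjusted p = 0.037). In HH it was 16.98, 16.55 and 16.15 against 16.75 and 16.65 in CC_l, which overlapped.

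**Figure D5:**
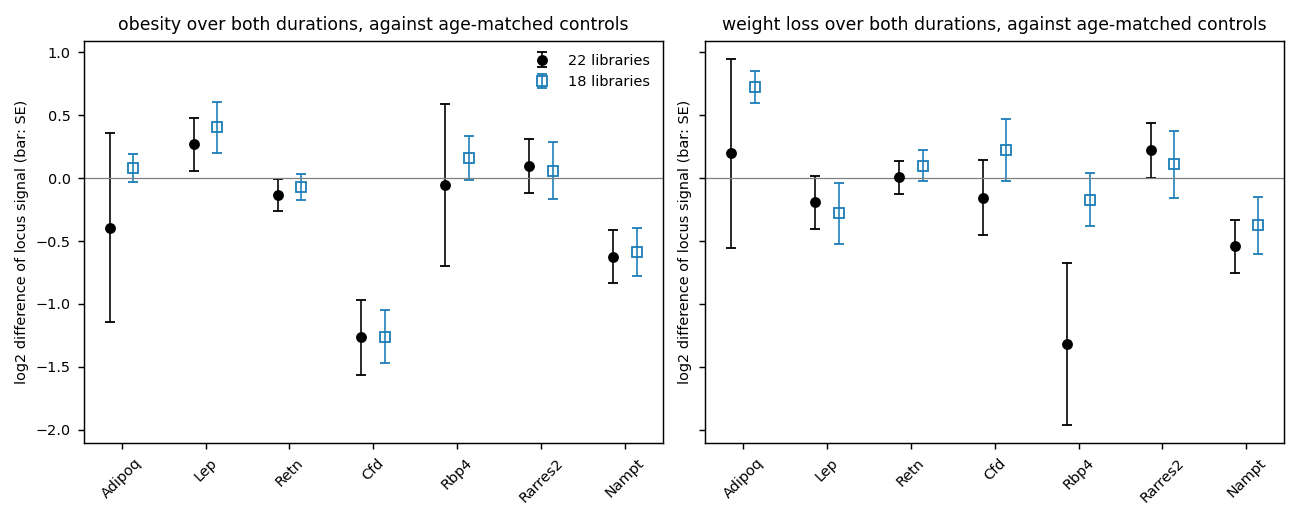
Log2 difference of locus signal (y axis, bars are standard errors) for each adipokine gene (x axis) in obesity and in weight loss, averaged over both durations against age-matched controls. Filled points use 22 libraries and open squares 18. Cfd lies at -1.26 in obesity in both, and Rbp4 in weight loss moves from -1.32 to -0.17 without the 4 libraries.

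As a group the 7 genes did not move one way. In obesity over both durations 2 had a difference above 0 and 5 below, with a median of -0.14 against -0.01 over all loci, and in weight loss 3 were above and 4 below, with a median of -0.15 against -0.01. For each gene the loci with the most alike signal over the 22 libraries were found by Pearson's r among loci that did not overlap its own. For Cfd they were 4930558K02Rik (r = 0.86), Rfx4 (r = 0.86) and Pigc (r = 0.85). For Nampt they were Vinac1 (r = 0.88), Errfi1 (r = 0.87) and Foxc1 (r = 0.86), and for Lep they were Dnaja1 (r = 0.88), Smu1 (r = 0.84) and Prdx4 (r = 0.79). The closest to Adipoq was Kng1 (r = 0.99), to the left of Eif4a2, whose locus touches the same long peaks. The second, Oxct2a, had r = 0.92 with 22 libraries and 0.24 with the 18. Pdpr was closest to Rbp4 (r = 0.97, and 0.85 with the 18), Amer1 to Retn (r = 0.92) and Tnfrsf11b to Rarres2 (r = 0.71). These points share libraries and their peak thresholds, and the correlations are a description.

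Receptors and binding partners of adipokines were counted on a list of 14 genes, of which 12 were tested and Rbpr2 had no match. In obesity over both durations 2 were lower and 0 higher, where 8.26% of all loci were called, and the median was -0.07 against -0.01 over all loci. Stra6, the membrane receptor that takes up retinol from Rbp4, had a locus signal of 17.92 ± 0.28 (SD, n = 3) in C, 16.95 ± 0.38 (SD, n = 3) in H, 17.72 ± 0.02 (SD, n = 2) in CC_l and 17.05 ± 0.19 (SD, n = 3) in HH. It was lower by a difference of -0.82 (SE 0.18, limma adjusted p = 0.011), and by -0.77 (limma adjusted p = 0.011) with the 18 libraries. Cmklr1, the chemerin receptor, was lower at -0.46 (SE 0.13, limma adjusted p = 0.037), with -0.95 in H against C and 0.04 in HH against CC_l, and it was at -0.54 (limma adjusted p = 0.0054) over both durations with the 18 libraries. With the 18 libraries, where 19.3% of all loci were called, 3 were lower, Gpr1 among them. In weight loss limma called 0 of 12 with 22 or 18 libraries, where 2.19% and 0.826% of all loci were called.

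Of 25 other secreted adipocyte factors, all tested, 3 were lower, Apln, Cfb and Agt, in obesity over both durations, where 8.26% of all loci were called in either direction, and 4 were lower with the 18 libraries, where 19.3% were called in either direction. Higher ones are not counted here. Apln, which encodes the peptide hormone apelin, had lower group means in obesity and in weight loss than in the controls of both durations. Its signal was 17.14 ± 0.38 (SD, n = 3) in C, 14.47 ± 0.71 (SD, n = 3) in H, 16.55 ± 0.38 (SD, n = 3) in CC_s and 14.20 ± 0.14 (SD, n = 3) in HC. In the long duration it was 16.11 ± 0.02 (SD, n = 2) in CC_l, 15.06 ± 0.86 (SD, n = 3) in HH, 16.42 ± 0.09 (SD, n = 2) in CCC and 15.26 ± 1.04 (SD, n = 3) in HHC. The means of H and HC lay near the floor of 14.06, so the size of the differences depends in part on the floor. Of the single pairs only H against C was called (limma adjusted p = 0.014). The limma adjusted p was 0.488 for HH against CC_l, 0.237 for HC against CC_s and 0.856 for HHC against CCC. Over both durations the difference was -1.86 (SE 0.36, limma adjusted p = 0.0047) in obesity and -1.75 (SE 0.36, limma adjusted p = 0.020) in weight loss. With the 18 libraries these were -1.61 (limma adjusted p = 0.0013) and -1.38 (limma adjusted p = 0.051). Cfb, which encodes complement factor B, the substrate of the protease that Cfd encodes, was lower at -0.85 (SE 0.20, limma adjusted p = 0.014) in obesity and at -0.81 (limma adjusted p = 0.041) in weight loss. The weight loss difference of Cfb was -1.42 (limma adjusted p = 0.231) in HC against CC_s and -0.20 (limma adjusted p = 0.899) in HHC against CCC. With the 18 libraries Cfb was at -0.87 in obesity (limma adjusted p = 0.0049) and at -0.72 in weight loss (limma adjusted p = 0.127). Of the 25 factors 3 were lower in weight loss with 22 libraries, Apln, Cfb and Igf1, where 2.19% of all loci were called, and limma called 0 with 18.

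Of 18 regulators and assembly factors of adipokines, 2 were higher and 0 lower in obesity over both durations, where 8.26% of all loci were called. With the 18 libraries, where 19.3% were called, 2 were higher and 2 lower, Ebf2 and Rxra. Zfp423, a regulator of the preadipocyte state, had a signal of 20.63 ± 0.03 (SD, n = 3) in C, 21.13 ± 0.15 (SD, n = 3) in H, 20.56 ± 0.15 (SD, n = 2) in CC_l and 21.01 ± 0.06 (SD, n = 3) in HH. The difference was 0.47 (SE 0.08, limma adjusted p = 0.0028), and 0.49 with the 18 libraries (limma adjusted p = 0.0012). Foxo1, a transcription factor under insulin control, was higher by 0.58 (SE 0.15, limma adjusted p = 0.028), and by 0.63 (limma adjusted p = 0.015) with the 18 libraries. In weight loss 2 of the 18 genes were lower, where 2.19% of all loci were called. Pparg, the master regulator of adipocyte differentiation, was at 21.35 ± 0.33 (SD, n = 3) in CC_s, 19.95 ± 0.57 (SD, n = 3) in HC, 21.82 ± 0.20 (SD, n = 2) in CCC and 20.56 ± 1.25 (SD, n = 3) in HHC. In CC_l it was 20.71 ± 0.35 (SD, n = 2) and in HH 20.76 ± 0.08 (SD, n = 3). Over both durations Pparg was lower in weight loss by -1.33 (SE 0.31, limma adjusted p = 0.035), and by -0.89 with the 18 libraries. Neither single pair was called, with limma adjusted p = 0.312 for HC against CC_s and 0.856 for HHC against CCC. Srebf1, a regulator of fat synthesis, was lower by -0.44 (SE 0.11, limma adjusted p = 0.0497) with 22 libraries, and at -0.47 (limma adjusted p = 0.168) with 18 it was not called.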

How the data were processed

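Per the labels and the study's methods, the authors made ATAC-seq libraries from biotin-labelled adipocyte nuclei, and the submitters' processing notes name Trim Galore 0.6.6, Bowtie2 2.4.4, SAMtools 1.13, bedtools 2.30 and SEACR 1.3 with build mm10. The deposited lists hold, per peak, total signal and maximum signal from coverage, called in each library by its own threshold. No normalization is stated. Peaks in blacklisted regions were removed according to the methods, and whether before or after deposit is not given in the sources used here.

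Peaks were assigned to GENCODE M21 genes with 20 kb on each side (16763 of 21938 loci ranked), to promoters of 2 kb on each side (12439 ranked, floor 14.30) and to 104657 merged regions (30083 ranked, floor 14.01). Rank-mapped log2 totals were tested with limma 3.58.1 (trend, Benjamini-Hochberg over all features) in R 4.3.3, on the libraries of a pair or, over both durations, on all groups. Python 3.11.15 with numpy 2.4.6 and pandas 2.3.3 was used for overlaps. Features at the floor throughout a fit were not tested.

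All 7 genes are named whatever their values. One result of a gene list is not reported here. Of each gene list the 2 with the smallest p over both durations in obesity and in weight loss are named, and others of small counts were named after their values were seen. The genes, lists and tests were chosen with earlier results of these data known. Leaving out HC 3, HH 1, CCC 2 and HHC 3 was chosen after seeing the data. Each library is 1 animal. Replicate numbers were not taken to pair libraries, since deviations of same-numbered libraries correlated at -0.21 to 0.14. No identical peaks were shared by any of 231 library pairs. On simulated data of 16039 loci with 200 changed, 3 against 3 libraries recovered 83 of them for a log2 change of 1 and 169 for 2, and 3 against 2 recovered 0 and 139. The simulated noise was independent between loci and had the spread of group C alone. These rates therefore do not describe comparisons that include HC 3, HH 1, CCC 2 or HHC 3.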

Additional observations from a re-analysis of the deposited data

How the results depend on the processing

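At a call rule of adjusted p under 0.05, limma called 1 locus in H against C (Cfd), 0 in HH against CC_l and 1 over both durations. Counts of members called that moved under an alternative were as follows. A count that stayed close to the first is not listed, even where another gene was called. Apart from the shares given above, the share of all features called under an alternative is not given, here or above. By covered length, the count was 0 of the loci in H vs C and 0 of the loci in obesity over both durations. With the part of peaks inside the locus, the count was 2 of the loci in H vs C and 2 of the loci in obesity over both durations. With 2 kb each side, the count was 0 of the loci in H vs C, 1 of the loci in HH vs CC_l and 0 of the loci in obesity over both durations. With a replicate block, the count was 0 of the loci in H vs C, 0 of the promoters in HH vs CC_l and 0 of the regions in weight loss over both durations. With robust eBayes and no trend, the count was 0 of the loci in H vs C. With all 22 libraries in the fit, the count was 0 of the loci in H vs C. By an unadjusted p under 0.01 and a log2 change above 1, the count was 1 of the loci in HH vs CC_l, 1 of the promoters in H vs C, 0 of the regions in H vs C, 0 of the regions in obesity over both durations and 0 of the regions in weight loss over both durations. Without HC 3, HH 1, CCC 2 and HHC 3, the count was 1 of the loci in HH vs CC_l, 2 of the loci in obesity over both durations, 1 of the loci in weight loss over both durations, 1 of the promoters in obesity over both durations, 4 of the regions in obesity over both durations and 0 of the regions in weight loss over both durations. With median scaling, the count was 2 of the loci in obesity over both durations, 4 of the regions in obesity over both durations and 0 of the regions in weight loss over both durations. As a share of the library total, the count was 0 of the loci in obesity over both durations. By maximum signal, the count was 0 of the loci in obesity over both durations, 0 of the promoters in HH vs CC_l, 0 of the regions in obesity over both durations and 0 of the regions in weight loss over both durations. In H vs C the count of loci by maximum signal stayed at 1, but another gene was called. It was Adipoq (log2 difference -1.06, limma adjusted p = 0.047) and not Cfd. Without HC 3 and HHC 3, the count was 2 of the loci in obesity over both durations and 1 of the promoters in obesity over both durations. With no filter, the count was 0 of the promoters in HH vs CC_l, 0 of the regions in H vs C and 0 of the regions in weight loss over both durations. With the 20000 strongest peaks, the count was 0 of the regions in H vs C and 0 of the regions in weight loss over both durations. With peaks covering 50% of the region, the count was 1 of the regions in H vs C, 1 of the regions in HH vs CC_l, 0 of the regions in obesity over both durations and 0 of the regions in weight loss over both durations. Leaving out 1 library at a time gave 0 to 2 loci in H against C, 0 to 1 in HH against CC_l and 0 to 2 over both durations in obesity, 0 to 1 promoters in HH against CC_l and in weight loss, and 0 to 2 regions in H against C, 2 to 3 in obesity and 0 to 1 in weight loss. The Cfd promoter call in HH against CC_l was lost without CC_l 1, CC_l 2, HH 2 or HH 3. With the replicate block, Cfd was at -1.06 (limma adjusted p = 0.084) in H against C and at -1.11 (limma adjusted p = 0.034) over both durations. Without the 4 libraries, CCC is 1 library, assumed to vary like the others. The locus counted in weight loss without them was Adipoq, by whose peaks the 4 libraries were set apart.

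The following locus differences had the opposite sign to the one with all libraries and rank-mapped totals. By maximum signal, they were Lep H vs C at -0.023, Adipoq H vs C at -1.06, Rbp4 H vs C at -0.16, Retn HC vs CC_s at -0.094, Cfd HC vs CC_s at -0.073, Lep HH vs CC_l at -0.17, Rarres2 HHC vs CCC at -0.12, Lep obesity over both at -0.095, Rarres2 weight loss over both at -0.053, Retn weight loss over both at -0.11, Adipoq weight loss over both at -0.051. With the 20000 strongest peaks, they were Rarres2 H vs C at 0.025. With median scaling, they were Retn H vs C at -0.17, Retn HC vs CC_s at -0.0055, Cfd HC vs CC_s at -0.12, Rarres2 obesity over both at -0.025, Retn weight loss over both at -0.10. As a share of the library total, they were Retn H vs C at -0.21, Rarres2 HC vs CC_s at -0.17, Retn HC vs CC_s at -0.35, Cfd HC vs CC_s at -0.46, Lep HH vs CC_l at -0.032, Rarres2 HHC vs CCC at -0.045, Rarres2 obesity over both at -0.083, Rarres2 weight loss over both at -0.11, Retn weight loss over both at -0.37. With the part of peaks inside the locus, they were Retn H vs C at -0.055, Retn HC vs CC_s at -0.11, Lep HH vs CC_l at -0.0017, Retn weight loss over both at -0.17, Adipoq weight loss over both at -0.074. By covered length, they were Lep HC vs CC_s at 0.21, Retn HHC vs CCC at 0.069, Retn obesity over both at 0.058, Rbp4 obesity over both at 0.040, Lep weight loss over both at 0.10. Without HC 3 and HHC 3, they were Lep HC vs CC_s at 0.022, Adipoq HC vs CC_s at 0.95, Cfd HHC vs CCC at 0.29, Cfd weight loss over both at 0.28. Without HC 3, HH 1, CCC 2 and HHC 3, they were Lep HC vs CC_s at 0.022, Adipoq HC vs CC_s at 0.95, Rbp4 HH vs CC_l at 0.036, Rarres2 HHC vs CCC at -0.19, Cfd HHC vs CCC at 0.17, Nampt HHC vs CCC at 0.024, Adipoq obesity over both at 0.080, Rbp4 obesity over both at 0.16, Cfd weight loss over both at 0.22. With 2 kb each side, they were Retn HC vs CC_s at -0.60, Cfd HC vs CC_s at -1.32, Retn obesity over both at 0.046, Rbp4 obesity over both at 0.20, Retn weight loss over both at -0.59. With a replicate block, they were Lep HH vs CC_l at -0.13, Cfd HHC vs CCC at 0.29, Rbp4 obesity over both at 0.17, Retn weight loss over both at -0.0063. Leaving out 1 library at a time changed a sign within these ranges: Retn H vs C from -0.042 to 0.10, Lep HC vs CC_s from -0.18 to 0.073, Rarres2 HC vs CC_s from -0.026 to 0.67, Cfd HC vs CC_s from -0.23 to 0.28, Adipoq HC vs CC_s from -0.78 to 0.95, Lep HH vs CC_l from -0.13 to 0.40, Rbp4 HH vs CC_l from -0.72 to 0.036, Lep HHC vs CCC from -0.64 to 0.015, Rarres2 HHC vs CCC from -0.18 to 0.59, Cfd HHC vs CCC from -0.75 to 0.29, Adipoq HHC vs CCC from -0.70 to 1.83, Adipoq obesity over both from -0.65 to 0.080, Rbp4 obesity over both from -0.22 to 0.16, Retn weight loss over both from -0.050 to 0.10, Cfd weight loss over both from -0.37 to 0.15, Adipoq weight loss over both from -0.44 to 0.83. The causes were not tested. The lists give no read depth.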
